A study of Mus musculus with 15 samples.

Results

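The genes described here encode 5 calcium pumps, Atp2a2, Atp2a3, Atp2b1, Atp2b4 and Atp2c1, and the calcium-activated potassium channel KCa3.1, encoded by Kcnn4. They were chosen by name: their symbols were matched to Ensembl identifiers, and 6 of the 51912 genes in the table were taken, all of which passed the filter on low counts. Expression was measured by polyA RNA sequencing in cultured wild-type mouse B cells that received no treatment beyond the culture itself. The cells of every group had spent 6 days on 40LB cells, a fibroblast feeder line, with 100 ng/ml of IL-4. Unsorted cells taken on day 6 form the D6 group. The other 4 groups were moved off the feeder layer, kept 2 more days without stimulation and then sorted on day 8 by isotype and stage. These groups are IgE PC and IgG1 PC, the plasma cells, and IgE iGC and IgG1 iGC, the iGC cells of the labels. Each group has 3 biological replicates, 15 libraries in all. The labels do not say which animals or cultures the replicates came from, so the p-values measure only the spread between these libraries. The title of the series places calcium signalling in the differentiation and survival of IgE plasma cells. The question for these genes is therefore how the transcripts that clear or respond to cytosolic calcium differ between isotypes and stages.

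Cytosolic calcium is kept low by ATP-driven pumps of the P-type family, which are phosphorylated on a conserved aspartate in each transport cycle. SERCA pumps (Atp2a2 and Atp2a3) fill the endoplasmic reticulum, PMCA pumps (Atp2b1 and Atp2b4) expel calcium across the plasma membrane, and the SPCA pump (Atp2c1) loads the Golgi with calcium and manganese. Kcnn4 opens when calcium-bound calmodulin activates it, and the resulting potassium efflux hyperpolarises lymphocytes and sustains calcium entry. Plasma cells depend on a calcium-rich endoplasmic reticulum lumen in which chaperones fold secreted antibody.

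The coding sequence around the phosphorylated aspartate is printed for 4 of the pumps because it is their catalytic centre, and because it shows how far apart related pumps are for read assignment. Each line holds 51 bases of the GENCODE vM21 transcript (GRCm38), 5′ to 3′, with the codons of the phosphorylation motif in capitals.
Atp2a3: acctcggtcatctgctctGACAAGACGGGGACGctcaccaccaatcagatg
Atp2b1: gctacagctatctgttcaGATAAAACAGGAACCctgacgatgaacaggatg
Atp2b4: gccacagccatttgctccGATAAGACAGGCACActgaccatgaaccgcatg
Atp2c1: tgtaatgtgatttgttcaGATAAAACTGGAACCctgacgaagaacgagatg
Even in this conserved stretch the PMCA pair had 40 of 51 bases in common, no more than Atp2b1 and Atp2c1, which also had 40. Over the whole coding sequence, identity was 69.9% of aligned bases for the SERCA pair and 71.5% for the PMCA pair. The longest run common to Atp2a2 and Atp2a3 was 44 bases and that common to Atp2b1 and Atp2b4 was 26 bases, both shorter than the 76 bp reads. RSEM divides reads that fit several genes, which can give fractional counts. Expected counts were whole numbers in all 15 libraries for Atp2b4 and Atp2c1 and in 14 for Kcnn4. They were whole in 11 libraries for Atp2a2 and for Atp2a3, and in 9 for Atp2b1. The size of a fraction does not measure how many reads were divided.

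Library totals ran from 17740876 to 54067953 expected counts. The 3 IgG1 PC libraries differed most from each other, with a chi-square per degree of freedom of 29.8 to 101 between pairs against 4.64 to 25.2 within the other groups. Marker levels followed the labels. Summed B cell markers were highest in iGC cells, plasma cell markers reached 9830 to 10900 TPM in IgE PC and 6320 to 7660 TPM in IgG1 PC, and at most 678 TPM elsewhere. Fibroblast markers, included because of the feeder line, summed to 125 to 165 TPM in D6, 27.0 to 34.2 in IgE iGC, 23.3 to 33.3 in IgG1 iGC, 26.1 to 51.1 in IgG1 PC and 5.74 to 8.86 in IgE PC. T cell markers summed to at most 4.42 TPM and myeloid markers to at most 2.0 TPM. In these bulk libraries, fewer cells of a type and less RNA per cell cannot be told apart.

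The SERCA genes moved in opposite directions between iGC and PC cells, and both moved further in IgE cells. Atp2a2 encodes SERCA2, the widely expressed calcium pump of the endoplasmic reticulum (ENSMUSG00000029467, GRCm38 chr5:122453513-122502225, minus strand). Its level in CPM, counts scaled to library size by TMM, was 298.71, 320.43 and 330.44 in D6, 213.88, 212.96 and 204.41 in IgE iGC, and 213.37, 209.24 and 205.67 in IgG1 iGC. It reached 371.06, 368.3 and 360.85 CPM in IgG1 PC and 719.83, 698.05 and 771.52 CPM in IgE PC. The iGC groups overlapped and stood lowest, D6 was intermediate, and every IgE PC library lay above every other library. From iGC to PC, Atp2a2 rose 3.47-fold in IgE cells (log2 fold change 1.79, SE 0.05, adjusted p = 3.18e-13) and 1.75-fold in IgG1 cells (log2 fold change 0.81, SE 0.05, adjusted p = 5.68e-09; edgeR quasi-likelihood test with Benjamini-Hochberg adjustment over all genes, here and below). The test of the difference between these steps, the interaction of stage and isotype, gave a log2 value of 0.99 (SE 0.08, adjusted p = 2e-07), a value higher than that of 95.2% of the genes tested. Regardless of sign, it was larger than that of 78% of them. Between the iGC groups the difference was 0.01 on the log2 scale, with a 95% interval of -0.11 to 0.13. In TPM, Atp2a2 ran from 71.46 to 72.92 in IgE iGC and from 146.82 to 151.7 in IgE PC. In IgG1 the stages overlapped, at 70.57 to 73.14 TPM in iGC and 72.88 to 91.42 in PC.

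Atp2a3 encodes SERCA3, the isoform of blood cells and some epithelia with a lower affinity for calcium (ENSMUSG00000020788, chr11:72961169-72993044, plus strand). In TPM, which allows for gene length, it was the most abundant of the 6 transcripts in the iGC groups, with means of 403.1 in IgE and 353.25 in IgG1. The same held in D6 (131.84) and IgG1 PC (158.39), but not in IgE PC (103.34). Its CPM values were 955.53, 979.36 and 961.03 in IgE iGC and 845.56, 842.64 and 832.26 in IgG1 iGC, against 575.68, 571.57 and 595.91 in IgG1 PC, 433.45, 439.07 and 411.42 in IgE PC, and 318.23, 276.1 and 273.91 in D6. None of the 5 groups overlapped another. Atp2a3 fell from iGC to PC by 1.17 on the log2 scale in IgE cells (SE 0.06, adjusted p = 6.79e-11) and by 0.53 in IgG1 cells (SE 0.06, adjusted p = 1.59e-06), and the interaction was -0.64 (SE 0.08, adjusted p = 2.21e-05). Atp2a3 was lower in IgE PC than in IgG1 PC (log2 fold change -0.44, SE 0.06, adjusted p = 1.15e-05). The higher level in IgE iGC than in IgG1 iGC, 0.20 on the log2 scale, did not pass the test (SE 0.06, adjusted p = 0.073). It did pass in a fit of these groups alone (0.19, adjusted p = 0.00529) and with DESeq2 (0.21, adjusted p = 0.00411).

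**Figure D1:**
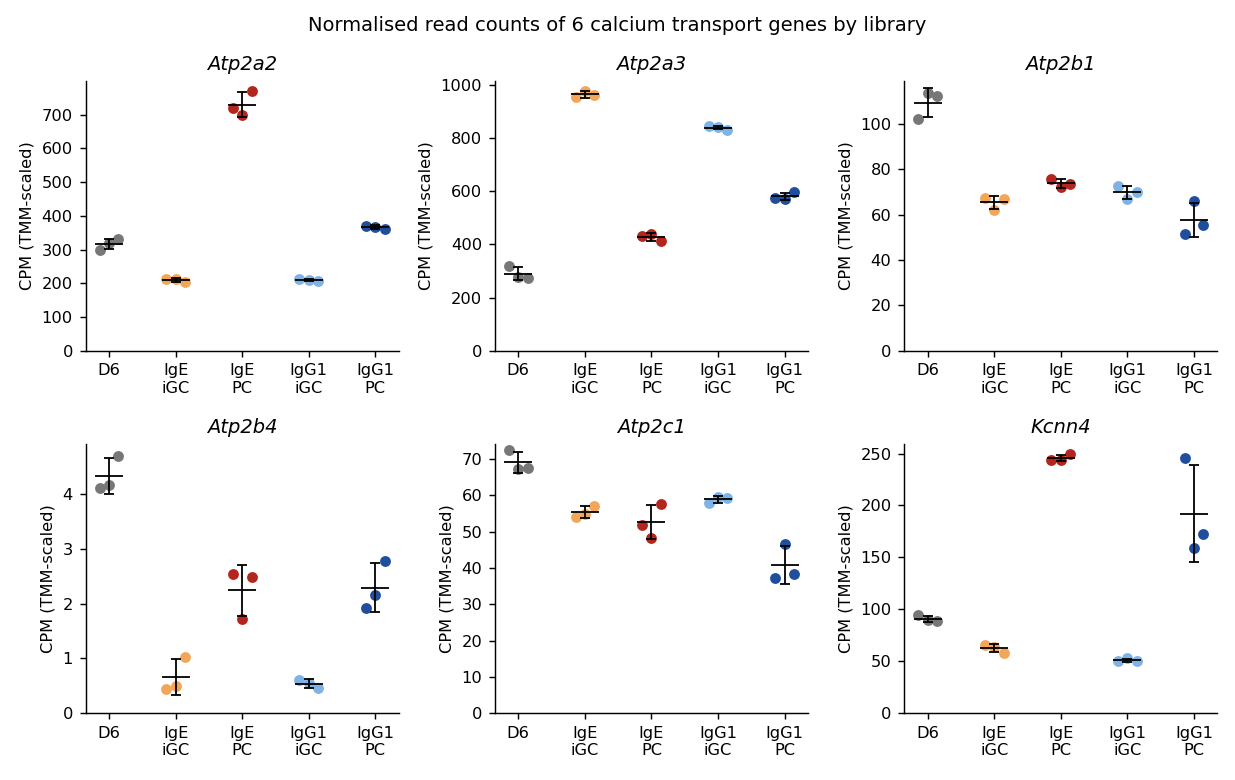
TMM-scaled CPM of the 6 genes (vertical axes from 0) in the 5 groups; points are libraries, and lines and error bars are group means and SD (n = 3). Atp2a2 and Kcnn4 were highest in IgE PC, Atp2a3 was highest in iGC cells, and Atp2b1, Atp2b4 and Atp2c1 were highest in D6.

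The balance between the SERCA transcripts differed by stage. Expressed as its share of the summed Atp2a2 and Atp2a3 TPM, a value taken within each library and therefore free of scaling between libraries, Atp2a3 made up 84.8% ± 0.398 in IgE iGC and 83.0% ± 0.635 in IgG1 iGC (SD, n = 3). It made up 65.1% ± 0.725 in IgG1 PC, 52.0% ± 3.08 in D6 and 40.9% ± 1.99 in IgE PC (SD, n = 3). IgE PC was the group in which Atp2a2 exceeded Atp2a3 in all libraries, with 38.6% to 42.5% for Atp2a3. The IgE PC share lay 44.0 points below that of IgE iGC, the IgG1 PC share 17.9 points below that of IgG1 iGC, and the IgE PC share 24.3 points below that of IgG1 PC. No libraries overlapped in these comparisons, nor in that of the iGC groups, which differed by 1.8 points. With 3 libraries against 3, a two-sided exact permutation test cannot go below 0.1, which each of these reached (adjusted p = 0.16 over 8 tests), so none could pass 0.05. Taken from expected counts in place of TPM, the Atp2a3 share was lower in every group. It was then 82.1% in IgE iGC, 80.0% in IgG1 iGC, 61.3% in IgG1 PC, 47.7% in D6 and 37.0% in IgE PC. The sum of both genes also depended on the scale. In TMM-scaled CPM it was 1176 ± 14.5 in IgE iGC, 1158 ± 23.2 in IgE PC, 1050 ± 10.7 in IgG1 iGC, 947.8 ± 8.49 in IgG1 PC and 605.9 ± 10.3 in D6 (SD, n = 3). In TPM, which is not scaled between libraries, it was 475, 253, 425, 243 and 254 in the same order, so the difference between iGC and PC was much smaller in CPM, in which both PC groups also lay above D6.

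**Figure D2:**
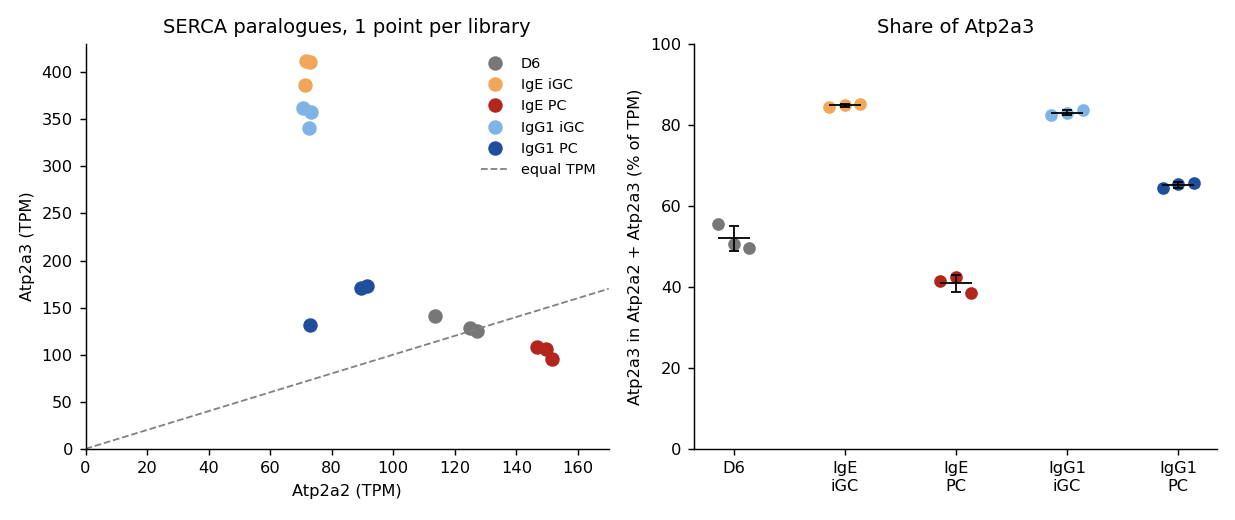
Left, TPM of Atp2a3 against TPM of Atp2a2 in each library, with a dashed line of equal TPM; right, Atp2a3 as a percent of their sum, with group means and SD (n = 3). The mean share was 84.8% and 83.0% in the iGC groups, 65.1% in IgG1 PC and 40.9% in IgE PC, the one group with every library below the dashed line.

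The PMCA genes differed from each other in both level and pattern. Atp2b1 encodes PMCA1, the housekeeping pump of the plasma membrane (ENSMUSG00000019943, chr10:98914406-99026143, plus strand), and stood at 15.4 to 43.4 TPM as group means. Its CPM values were 102.39, 113.62 and 112.53 in D6, 75.84, 72.03 and 73.66 in IgE PC, 72.56, 67.04 and 69.88 in IgG1 iGC, 67.34, 62.06 and 66.9 in IgE iGC, and 51.47, 66.24 and 55.41 in IgG1 PC. D6 lay above all other libraries, and no neighbours in the order of the 4 sorted groups differed beyond their spread. IgE PC was above IgG1 PC without overlap (log2 fold change 0.35, SE 0.08, adjusted p = 0.00119). Within IgG1, Atp2b1 fell from iGC to PC by 0.27 on the log2 scale (SE 0.08, adjusted p = 0.00716). That call was lost in a fit of these groups alone (-0.26, adjusted p = 0.0607). In IgE the step was 0.17 and did not pass (SE 0.08, adjusted p = 0.0624). It passed with RLE (0.20, adjusted p = 0.0467), DESeq2 (0.20, 0.042), TMM without immunoglobulin genes (0.19, 0.0421) and the groups alone (0.20, 0.00271). The interaction was 0.45 (SE 0.11, adjusted p = 0.00425). These small values depended on how libraries were scaled. With total counts in place of TMM, the IgE step became -0.29 (adjusted p = 0.0104), and neither the difference between the PC groups (0.10, adjusted p = 0.378) nor the interaction (0.21, adjusted p = 0.218) passed.

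Atp2b4 encodes PMCA4, the other PMCA isoform of wide expression (ENSMUSG00000026463, chr1:133699457-133801041, minus strand), and was scarce, with 16 to 185 counts per library. Its CPM values were 4.11, 4.15 and 4.69 in D6, 2.53, 1.71 and 2.48 in IgE PC, 1.92, 2.16 and 2.78 in IgG1 PC, 0.45, 0.5 and 1.03 in IgE iGC, and 0.61, 0.56 and 0.46 in IgG1 iGC. Both PC groups lay above both iGC groups and below D6. The rise from iGC to PC was 3.61-fold in IgE (log2 fold change 1.85, SE 0.28, adjusted p = 2.62e-05) and 4.17-fold in IgG1 (log2 fold change 2.06, SE 0.27, adjusted p = 1.11e-05). In TPM the stages overlapped, at 0.08 to 0.57 in IgE iGC and 0.21 to 0.45 in IgE PC. The IgG1 values were 0.08 to 0.19 TPM in iGC and 0.17 to 0.50 in PC. The interaction was -0.21 with a 95% interval of -1.08 to 0.66, so a difference between the isotypes within that range was not excluded at this depth. Atp2b4 contributed only 0.490% to 2.68% of PMCA TPM as group means. As a share of PMCA TPM, it overlapped between groups in 3 of 4 comparisons. In the other, IgG1 PC against IgG1 iGC, the groups did not overlap and the share was 1.54 points higher in PC (exact permutation p = 0.1, the smallest possible).

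Atp2c1, the Golgi pump SPCA1 (ENSMUSG00000032570, chr9:105403539-105527319, minus strand), varied least in TMM-scaled CPM, by 1.69-fold between the highest and lowest group means. In TPM its group means ran from 45.39 in D6 to 21.44 in IgE PC, with 22.05 in IgG1 PC. Its CPM values were 72.36, 67.29 and 67.52 in D6, 57.9, 59.48 and 59.31 in IgG1 iGC, 54.03, 54.73 and 57.18 in IgE iGC, 51.72, 48.35 and 57.62 in IgE PC, and 37.23, 46.71 and 38.34 in IgG1 PC. D6 was highest and IgG1 PC lowest, each without overlap with the rest, and the 3 groups between them followed each other without a step that passed the test. Atp2c1 fell from iGC to PC in IgG1 cells by 0.53 on the log2 scale (SE 0.08, adjusted p = 4.28e-05). The IgE step was -0.07, with a 95% interval of -0.25 to 0.11. The interaction was 0.46 (SE 0.11, adjusted p = 0.00443), and IgE PC exceeded IgG1 PC by 0.36 (SE 0.08, adjusted p = 0.00116). With total-count scaling the fall reached -0.54 in IgE as well (adjusted p = 4.98e-05), while the interaction (0.21, adjusted p = 0.179) and the difference between PC groups (0.11, adjusted p = 0.307) no longer passed. The gene overlaps Aste1 and the antisense gene Gm19667 on the opposite strand. The reads were strand-specific, but whether counting used the strand is not given in the sources used here.

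Kcnn4 (ENSMUSG00000054342, chr7:24370263-24386690, plus strand) encodes KCa3.1 and rose from iGC to PC in both isotypes. In CPM it stood at 94.26, 89.69 and 88.88 in D6, 65.81, 64.01 and 58.42 in IgE iGC, and 50.74, 52.85 and 50.15 in IgG1 iGC. In PC cells it reached 243.57, 244.17 and 249.42 CPM in the IgE libraries and 245.21, 158.69 and 172.72 CPM in the IgG1 libraries. All PC libraries were above all others, and the first IgG1 PC library lay within the IgE PC range while the other two lay below it. From iGC to PC the rise was 3.91-fold in IgE (log2 fold change 1.97, SE 0.12, adjusted p = 8.29e-10) and 3.75-fold in IgG1 (log2 fold change 1.91, SE 0.12, adjusted p = 3.42e-09). The interaction was 0.06 (adjusted p = 0.793), with a 95% interval of -0.30 to 0.43. It was 0.27 and passed without the first IgG1 PC library (adjusted p = 0.00643), and it was -0.06 without the second and -0.01 without the third.

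IgE PC had 1.28-fold more Kcnn4 than IgG1 PC (log2 fold change 0.36, SE 0.11, adjusted p = 0.0144), but the groups overlapped. The value was 0.57 without the first IgG1 PC library (adjusted p = 2.01e-07). It no longer passed without the second (0.24, adjusted p = 0.0586), without the third (0.29, adjusted p = 0.069), in a fit of these groups alone (0.35, adjusted p = 0.078) or with total-count scaling (0.12, adjusted p = 0.295). Between the iGC groups Kcnn4 differed by 0.29 without overlap and did not pass (adjusted p = 0.231), though it did in a fit of those groups alone (adjusted p = 0.00419).

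The 250 bases upstream of the Kcnn4 start are shown because this gene rose in both isotypes and the window holds the one palindromic match found. The sequence is from RefSeq, GRCm38.p6, chr7:24370013-24370262, plus strand. Capitals mark CCACG on both strands, the letters that form part of the endoplasmic reticulum stress element, here overlapping at 134 to 127 bases before the start.
Kcnn4: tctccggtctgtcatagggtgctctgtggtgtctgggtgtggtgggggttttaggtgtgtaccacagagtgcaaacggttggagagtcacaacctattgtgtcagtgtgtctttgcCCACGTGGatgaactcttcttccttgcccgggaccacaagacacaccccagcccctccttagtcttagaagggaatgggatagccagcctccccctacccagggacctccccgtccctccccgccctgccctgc
CCACG occurred on either strand in 28.34% of 32851 promoters, each searched over the same 250 upstream bases, so a match is common. RefSeq entries were matched for 5 of the 6 genes, all but Atp2a2. Among those windows only one of the Atp2c1 promoters also held CCACG, on both strands at separate places. Neither the full element, CCAAT and CCACG separated by 9 bases, present in 0.11% of promoters, nor the core TGACGTG, present in 1.65%, was found in any of them on either strand. These are matches of letters and no measure of binding.

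Counted together, 5 of the 6 genes differed between IgE PC and IgG1 PC, 4 higher and 1 lower in IgE, beside 58.1% of the 15692 genes tested (27.4% higher, 30.7% lower). With total counts this became 1 higher, Atp2a2, and 1 lower, Atp2a3, beside 9537 of all genes called, 23.8% of them higher. Between the iGC groups none of the 6 was called in the edgeR fit over all 15 libraries, beside 3.87% of all genes (1.99% higher and 1.88% lower in IgE). In a fit of those groups alone edgeR called 2 of the 6, Atp2a3 and Kcnn4, and DESeq2 called Atp2a3. The 607 genes behind that 3.87% became 1503 in the fit of those groups alone, 937 with DESeq2 and 323 to 403 with 1 library left out. From IgE iGC to IgE PC, 3 rose and 1 fell, beside 64.1% of all genes called in either direction, 30.5% higher and 33.6% lower. With total counts 3 rose and 3 fell, beside 11394 of all genes called, 23.3% of them higher. From IgG1 iGC to IgG1 PC, 3 rose and 3 fell, beside 59.1% of all genes, 30.1% higher and 29% lower. The interaction was called for 4 genes, 3 positive and 1 negative, beside 42.9% of all genes, 19.8% positive and 23.1% negative. With total counts it was called for Atp2a2 and Atp2a3 alone, beside 7145 of all genes, 21.6% of them positive. Across stage and isotype together, 3 were higher and 1 lower in IgE PC than in IgG1 iGC, beside 65.2% of all genes (31.1% higher, 34.1% lower). For IgG1 PC against IgE iGC, 3 were higher and 2 lower, beside 56% of all genes (28.3% higher, 27.7% lower). A call was thus common among all genes in every comparison but that of the iGC groups. Fibroblast markers were lower in IgE PC than in IgG1 PC for 5 of the 5 tested. B cell markers were lower for 3 of 5, and the other 2 did not pass. In CPM, Ms4a1 averaged 917 in IgE PC against 837 in IgG1 PC, and Cd79b 807 against 838. Summed B cell markers were 1705 to 1874 TPM in IgE PC against 2542 to 2858 in IgG1 PC. The part of either set of markers in the differences between PC groups and in the interactions was not tested.

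**Figure D3:**
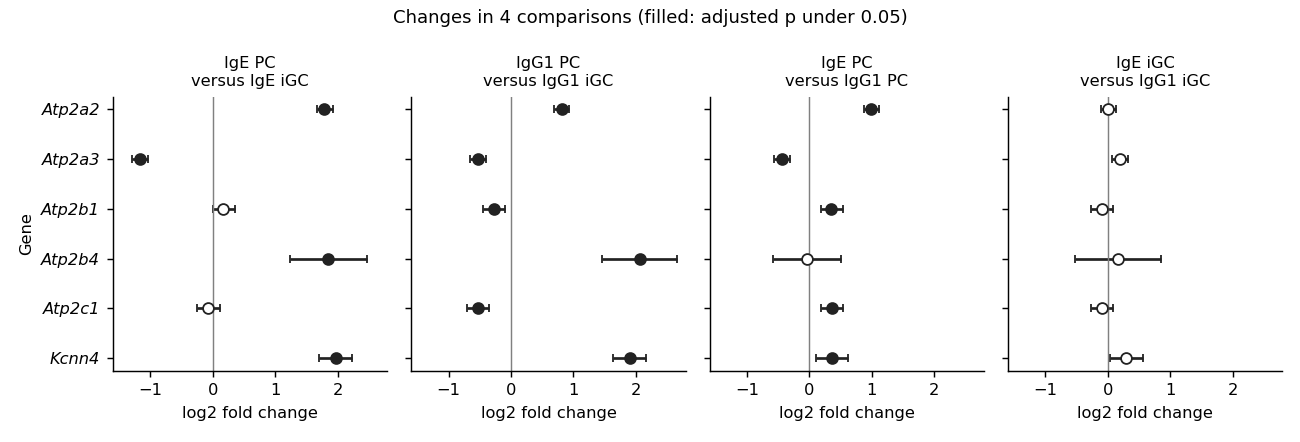
Log2 fold changes of the 6 genes with 95% intervals in the 2 comparisons between stages and the 2 between isotypes; filled points passed the test. Atp2a2 rose by 1.79 in IgE and 0.81 in IgG1 cells, and Kcnn4 by 1.97 and 1.91.

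TMM factors were 0.764 to 0.972 in the PC libraries and 1.077 to 1.151 in the others, so the choice of scaling shifted the stage comparisons. Total-count scaling moved the median log2 change of all genes from -0.05 to -0.30 between the PC groups, from -0.08 to -0.55 for the IgE step, from 0.01 to -0.22 for the IgG1 step and from -0.06 to -0.30 for the interaction. The share of called genes that were higher went from 47.2% to 23.8%, from 47.6% to 23.3%, from 50.9% to 32% and from 46.1% to 21.6% in the same order. The rises of Atp2a2, Atp2b4 and Kcnn4 and the falls of Atp2a3 from iGC to PC passed under both scalings in both isotypes. In TPM, which was not tested, Atp2b4 overlapped between the stages in both isotypes, and Atp2a2 did so in IgG1. With total counts the Atp2a2 step was 1.32 in IgE and 0.57 in IgG1, the Atp2a3 step -1.64 and -0.76, and the Kcnn4 step 1.5 and 1.66.

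**Figure D4:**
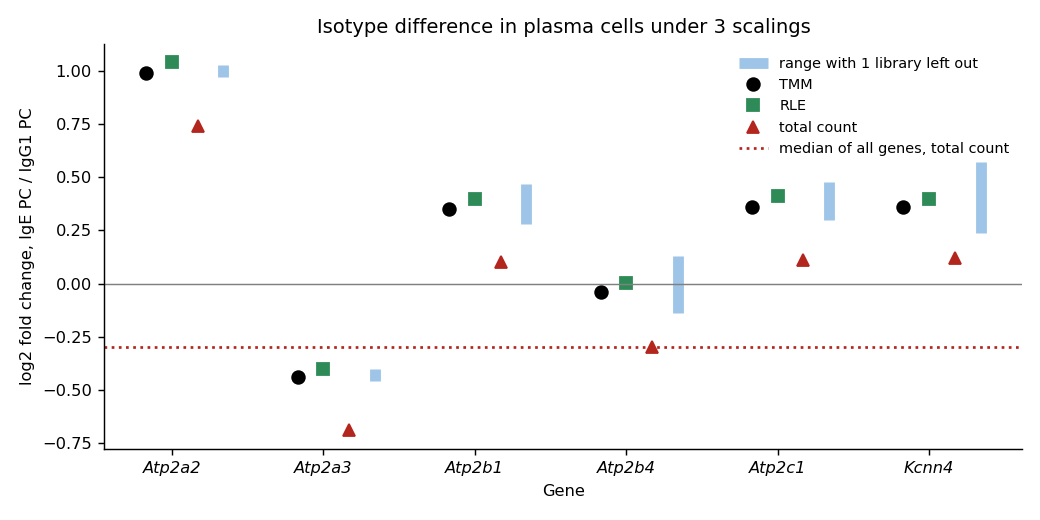
Log2 fold change of IgE PC over IgG1 PC (vertical) for the 6 genes under TMM, RLE and total-count scaling; blue bars are the range when 1 library was left out, and the dotted line is the median of all genes with total counts, -0.30. Atp2a2 stayed at 0.74 or above and Atp2a3 at -0.40 or below, while Atp2b1, Atp2c1 and Kcnn4 came down to 0.10, 0.11 and 0.12 with total counts.

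All 6 genes differed from D6 in each sorted group, and these 4 comparisons share the D6 libraries. In IgE iGC, Atp2a3 was higher than in D6 (log2 fold change 1.74) and the other 5 were lower, from -0.32 for Atp2c1 to -2.80 for Atp2b4, beside 69.1% of all genes called (32.8% higher, 36.3% lower). In IgG1 iGC the same gene was higher (1.54) and the other 5 lower, from -0.23 to -2.97, beside 68.4% of all genes (32.4% higher, 36% lower). In PC cells, 3 were higher than in D6 and 3 lower for each isotype, beside 76.4% of all genes for IgE (36.9% higher, 39.5% lower) and 71.9% for IgG1 (35.9% higher, 36% lower). Atp2a2, Atp2a3 and Kcnn4 were higher by 1.21, 0.56 and 1.43 in IgE PC, and by 0.21, 1.01 and 1.08 in IgG1 PC. For Atp2b1, Atp2b4 and Atp2c1, which were lower, the log2 values were -0.57, -0.95 and -0.39 in IgE PC, and -0.92, -0.91 and -0.76 in IgG1 PC. Under total-count scaling Atp2a3 in IgE PC was 0.03 (adjusted p = 0.665) and Atp2a2 in IgG1 PC was -0.07 (adjusted p = 0.255). The Atp2c1 difference between IgG1 iGC and D6, -0.23 with an adjusted p of 0.0171, did not pass without the first D6 library (-0.19, adjusted p = 0.0747) or the first IgG1 iGC library (-0.21, adjusted p = 0.0629). The D6 cells were unsorted and held the highest fibroblast marker sum, and its part in the high D6 levels of Atp2b1, Atp2b4 and Atp2c1 was not tested.

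Across the 15 libraries, Atp2a2 and Kcnn4 had a Pearson correlation of log2 CPM of 0.919, Atp2a3 and Atp2b4 of -0.918, and Atp2b1 and Atp2c1 of 0.828. These describe 5 group levels more than 15 independent points and carry no test. By the same measure, among 8972 genes with a group mean of at least 10 CPM, the patterns most like each gene were as follows. For Atp2a2 they were Mettl9 (0.995), N4bp1 and Nars (both 0.994), and for Atp2a3 E2f2 (0.998), Plekho1 (0.996) and Bfsp2 (0.994). For Kcnn4 they were Krtcap2 (0.997), Mzb1 and Fkbp2 (both 0.995). For Atp2b1 they were Mapk1ip1l (0.986), Arhgap5 and Csnk1g1 (both 0.985), for Atp2c1 Capza2 and Vbp1 (both 0.981) and Zfp518a (0.978), and for Atp2b4 Hk2 (0.960), Dst (0.958) and Pxn (0.951).

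Calcium-binding proteins of the endoplasmic reticulum and Golgi lumen, which hold the calcium that the SERCA and SPCA pumps import, rose with the PC state in both isotypes. Of 12 genes, all tested, 11 rose and 1 fell from IgE iGC to IgE PC, with a median log2 change of 3.02 against -0.08 over all genes, of which 30.5% rose and 33.6% fell. In IgG1, 10 rose and 1 fell, with a median of 1.79 against 0.01 over all genes, of which 30.1% rose and 29% fell. The chaperones Hsp90b1, Hspa5 and Pdia4 rose most in IgE, by 4.40, 3.82 and 3.68, and Hsp90b1, Nucb1 and Pdia6 in IgG1, by 3.56, 2.73 and 2.65. Rcn2, a reticulocalbin, was the one that fell in each isotype. Between the PC groups, 9 of 12 were higher in IgE and the other 3 did not pass (median 0.95 against -0.05). Of all genes, 27.4% were higher and 30.7% lower there. Nucb2 was 1.99 and Hspa5 1.42 higher. The interaction was called positive for 9 of 12, beside 19.8% of all genes positive and 23.1% negative. With total counts the steps gave 10 higher and 1 lower in each isotype, with medians of 2.55 in IgE and 1.55 in IgG1, and the PC groups 9 higher and 3 lower. Over all genes the total-count medians were -0.55, -0.22 and -0.30 in the same order. Of the genes called, 23.3%, 32% and 23.8% were higher.

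Among partners and regulators of the pumps, 8 of 14 passed the count filter. From iGC to PC, 5 rose and 2 fell in IgE (median 0.57 against -0.08 over all genes), and 3 rose and 2 fell in IgG1 (median 0.03 against 0.01). Calls in either direction covered 64.1% of all genes in IgE and 59.1% in IgG1. Vmp1, an endoplasmic reticulum protein that activates SERCA, rose by 2.02 in IgE and 0.84 in IgG1. Hax1, a binding partner of phospholamban and SERCA2, rose by 2.01 and 1.04, and Bsg, the basigin subunit of PMCA complexes, by 1.13 and 1.40. The muscle peptides Pln, Sln and Mrln fell below the count filter, and Strit1, Erln and Arln were not matched. Nptn, the neuroplastin subunit of PMCA complexes, was lower than in D6 in both iGC groups (-0.83 in IgE, -0.79 in IgG1) and in IgG1 PC (-0.75). With total counts 3 of the 8 rose and 3 fell in each isotype, Vmp1, Hax1 and Bsg still among those that rose. Calls over all genes then numbered 11394 in IgE and 10066 in IgG1, 23.3% and 32% of them higher.

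Of the other calcium pumps and exchangers, 6 of 15 were tested, and Atp2b2, Atp2b3 and Atp2c2 fell below the filter. In the IgE step 2 rose and 1 fell, beside 64.1% of all genes called, and in the IgG1 step 4 rose, beside 59.1%. Tmco1, a calcium-load-activated channel of the endoplasmic reticulum, rose by 1.14 and 0.54, and Tmem165, a Golgi transporter, by 1.00 and 0.24. Slc24a2, a potassium-dependent sodium/calcium exchanger, was higher in IgE iGC than in IgG1 iGC by 1.34 (SE 0.19, adjusted p = 0.000738) and was the one gene of this group called there. In IgE it fell from iGC to PC by 0.92. With total counts the Tmem165 step in IgG1 was 0.01 (adjusted p = 0.933), 2 genes rose in each isotype, and Slc24a2 (-1.39) and Slc8b1 (-0.42) fell in IgE. Beside these, 11394 of all genes were called in IgE and 10066 in IgG1, 23.3% and 32% of them higher.

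Mitochondrial calcium uptake genes had calls in both directions with TMM. Of 8, 3 rose and 3 fell in the IgE step (median -0.20 against -0.08 over all genes), and 2 rose and 2 fell in the IgG1 step (median 0.01 against 0.01), beside 64.1% and 59.1% of all genes called. Mcur1, a regulator of the uniporter, fell by 1.09 and 0.80, and Smdt1, its EMRE subunit, rose by 0.58 and 0.42. With total counts none rose, 7 fell in IgE and 4 in IgG1, and Smdt1 did not pass (0.11 and 0.18), so the direction of this group rests on the scaling. The group medians were then -0.66 and -0.23, close to the -0.55 and -0.22 over all genes. Of all genes, 11394 in IgE and 10066 in IgG1 were called with total counts, 23.3% and 32% of them higher.

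Of the regulators of KCa3.1 and other potassium channels of lymphocytes, 9 of 12 were tested. In IgE, 5 rose and 2 fell from iGC to PC (median 0.48 against -0.08 over all genes, 64.1% of which were called). In IgG1, 3 rose and 2 fell (median 0.04 against 0.01, 59.1% called). The potassium channel Kcnk6 rose by 2.75 and 1.39. Nme2, the histidine kinase that activates KCa3.1, rose by 1.09 and 1.07, and Pik3c2b, a phosphoinositide kinase that also favours its activity, fell by 1.43 and 0.93. Mtmr6, a phosphatase that inhibits the channel, was 0.95 higher in IgE PC than in IgG1 PC. Kcna3, the voltage-gated channel Kv1.3, was higher in IgE than in IgG1 among both iGC (0.71) and PC cells (0.90). The related Kcnn2 and Kcnn3 fell below the count filter. With total counts 4 rose and 3 fell in IgE, and 3 rose and 4 fell in IgG1, with Kcnk6, Nme2 and Pik3c2b called in the directions given. Among all genes 11394 were called in IgE and 10066 in IgG1 at this scaling, 23.3% and 32% of them higher.

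**Figure D5:**
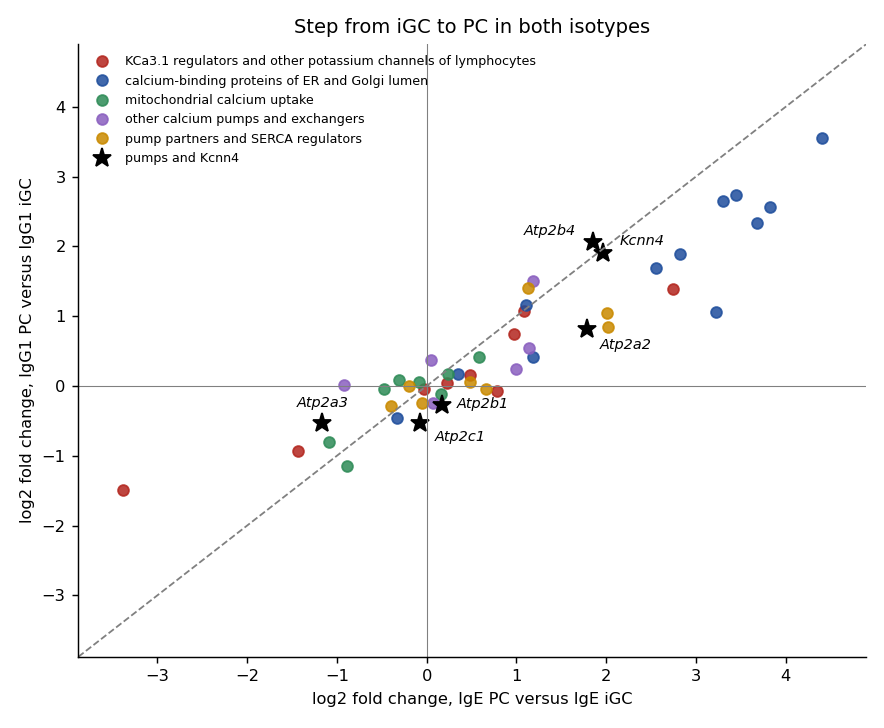
Log2 fold change from iGC to PC in IgE cells (horizontal) and IgG1 cells (vertical) for the 43 tested list genes, coloured by list, and the 6 genes described here as stars; the dashed line marks equal change. Atp2a2 lay to the right of the line with most of the calcium-binding proteins, while Kcnn4 and Atp2b4 lay near it.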

How the data were processed

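PolyA RNA of 15 libraries was sequenced as strand-specific single-end reads of 76 bp, per the labels' protocols. Tools named in the submitters' processing notes are cutadapt 1.9.1, STAR 2.5.2a, RSEM 1.3.0 and DESeq2 1.12.3, with build GRCm38. The authors deposited, per the file headers, RSEM expected counts (estimated counts) and TPM per gene. TPM are scaled within each library for effective length, so a few abundant transcripts lower all the others. The 6 genes and the gene lists were chosen with earlier results of these data known.

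Expected counts were rounded, filtered with filterByExpr (minimum count 10, minimum total 15), scaled by TMM and fitted with edgeR 4.0.16 (R 4.3.3) with a quasi-likelihood model of 1 mean per group over all libraries, leaving 10 residual degrees of freedom. The threshold for a call was a Benjamini-Hochberg adjusted p under 0.05 over the 15692 genes. The standard error is the log2 change divided by the square root of F, and is approximate. All 6 genes were named, and per list and comparison up to 3 called genes with the largest change and at least 10 CPM. Shares within SERCA and PMCA pairs were compared by two-sided exact permutation tests (scipy 1.17.1). Alternatives were RLE, total-count scaling, TMM without immunoglobulin genes, DESeq2 1.42.0, no filter, only the groups compared, a replicate block, and each library left out. Total-count scaling of the list genes was added after the data were seen. The fit was also run on simulated data with few changed genes, balanced up and down, which does not test the choice of scaling. Of 61 list genes, 58 were matched to the table. One sequence is not reported here.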

Additional observations from a re-analysis of the deposited data

Results flagged for a closer look

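The step from iGC to PC differed between IgE and IgG1 cells, by the test of the interaction itself, for 4 of the 6 genes. This interaction was called for 42.9% of the 15692 genes tested, so a call was common. On the log2 scale, with positive values for a larger rise or smaller fall in IgE, the interaction was 0.99 for Atp2a2, -0.64 for Atp2a3, 0.45 for Atp2b1 and 0.46 for Atp2c1. With total-count scaling Atp2a2 (0.75) and Atp2a3 (-0.88) kept the call, and Atp2b1 (0.21, edgeR adjusted p = 0.218) and Atp2c1 (0.21, adjusted p = 0.179) lost it. Of all genes, 7145 were then called, 21.6% of them positive.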

How the results depend on the processing

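Of 66 results for the 6 genes, that is 11 comparisons each, the replicate block left all 66 with their direction and call. The mean correlation of same-numbered deviations between groups was -0.0146, with single values from -0.195 to 0.0908. The block changed no count of called genes by over 1.5 times. Whether same-numbered replicates shared an animal or culture cannot be told from these values. Removing the filter changed none of the 66 either. With total-count scaling, log2 values of IgE PC versus IgG1 PC were 0.10 (Atp2b1), 0.11 (Atp2c1) and 0.12 (Kcnn4), and none passed. The interactions were 0.21 for Atp2b1, 0.21 for Atp2c1 and -0.16 for Kcnn4. Against IgE iGC, IgE PC gave -0.29 for Atp2b1 and -0.54 for Atp2c1. Against IgG1 iGC it gave -0.40 and -0.65, and IgG1 PC against IgE iGC gave -0.39 for Atp2b1. Against D6, Atp2a3 gave 0.03 in IgE PC and Atp2a2 -0.07 in IgG1 PC, and between iGC groups Atp2a2 gave -0.01. The share of called genes that were higher than in D6 went from 48.3% to 26.8% (IgE PC) and from 50% to 35% (IgG1 PC). It went from 47.7% to 23.7% for IgE PC versus IgG1 iGC and from 50.6% to 31.4% for IgG1 PC versus IgE iGC. With RLE, Atp2b1 passed in the IgE step (0.20) and in IgG1 PC versus IgE iGC (-0.20), and Atp2b4 between PC groups was 0.0037. DESeq2 gave 0.20, -0.20 and 0.0013 for these, and 0.21 for Atp2a3 between iGC groups. Without immunoglobulin genes, TMM gave 0.19 for Atp2b1 in the IgE step. Fits of only the groups compared gave 0.20 there, -0.26 for Atp2b1 in the IgG1 step (no longer passing), 0.35 for Kcnn4 between PC groups (no longer passing) and -0.15 for Atp2c1 in IgE PC versus IgG1 iGC. Between iGC groups they gave -0.00029 for Atp2a2, 0.19 for Atp2a3 and 0.29 for Kcnn4. Genes called between the iGC groups numbered 607, 937 with DESeq2, 1503 with those groups alone and 323 to 403 with 1 of their libraries left out. The cause was not tested.

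Leaving out 1 library gave 0.24 to 0.57 for Kcnn4 between PC groups, -0.06 to 0.27 for its interaction, -0.01 to 0.03 for Atp2a2 between iGC groups, and -0.25 to -0.19 for Atp2c1 in IgG1 iGC versus D6. Ranges were -0.31 to -0.11 for Atp2b1 in IgG1 PC versus IgE iGC and -0.23 to -0.11 for Atp2c1 in IgE PC versus IgG1 iGC. Atp2b4, which had 16 to 185 counts per library, ranged from -0.14 to 0.13 between PC groups, from -0.20 to 0.40 between iGC groups and from -0.44 to 0.16 for the interaction. Its share of PMCA TPM ranged from -0.717 to 0.134 points between PC groups and from -0.155 to 0.791 points between iGC groups.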
